A study of Mus musculus with 43 samples.

Results

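The genes that mark the medium spiny neurons of the striatum, 9 in number, were followed in mouse brain RNA sequencing: Drd1, Tac1, Drd2, Adora2a, Penk, Gpr6, Ppp1r1b, Pde10a and Rgs9. They were chosen by name, and all 9 were found by their Ensembl identifiers among the 55804 gene rows of each of 2 deposited tables. The study gave CDDO-2P-Im (2P-Im), a synthetic oleanane triterpenoid that induces the transcription factor NRF2, to 2 mouse models of Alzheimer's disease, and sequenced 43 libraries in 6 groups. The AppNLGF table holds mice of 6 months: 4 wild type vehicle libraries, 11 vehicle libraries of AppNLGF mice, which carry the AppNL-G-F/NL-G-F knock-in alleles at their own App locus, and 13 libraries of AppNLGF mice given 2P-Im. The APP/TAU table holds mice of 11 months, with 5 libraries each of wild type vehicle, APPV717I::TAUP301L (APP/TAU) vehicle and APP/TAU 2P-Im, with the promoters of the transgenes not given in the sources used here. Dosing was 30 µmol/kg by mouth, 3 times per week, for 4 weeks in AppNLGF mice and 2 weeks in APP/TAU mice, and the vehicle was DMSO and Chremophol EL in PBS. All groups share a tissue label, brain, with no region named. The replicates are numbered without a statement that each is a separate animal, so each p-value reflects how far these libraries scatter, which may be technical. Values are the authors' TPM, a measure of abundance per transcript length that scales every library to the same total and keeps no depth.

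Medium spiny neurons are the inhibitory output cells of the striatum and receive dopamine from the midbrain. They come in a pair of classes that feed opposing output routes: direct pathway cells carry the D1 dopamine receptor (Drd1), which raises cyclic AMP, and release substance P made from Tac1, while indirect pathway cells carry the D2 receptor (Drd2), which lowers cyclic AMP, together with an adenosine receptor (Adora2a), the orphan receptor Gpr6 and the enkephalin precursor Penk. Both classes hold DARPP-32 (Ppp1r1b), a phosphoprotein that integrates dopamine signals, the cyclic nucleotide phosphodiesterase Pde10a and Rgs9, which shortens G protein signalling. Cyclic AMP reaches genes through CREB, which binds the cyclic AMP response element in promoters.

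Promoters of the dopamine receptor genes, of Tac1 and of Gpr6 are printed because they differ in that element. Each covers the 250 bases before the RefSeq start site on GRCm38.p6, 5′ to 3′ on the gene's strand, at chr13:54055659-54055908 (minus) for Drd1, chr9:49340153-49340402 (plus) for Drd2, chr6:7554811-7555060 (plus) for Tac1 and chr10:41072291-41072540 (minus) for Gpr6. Capitals mark the letters searched.
Drd1: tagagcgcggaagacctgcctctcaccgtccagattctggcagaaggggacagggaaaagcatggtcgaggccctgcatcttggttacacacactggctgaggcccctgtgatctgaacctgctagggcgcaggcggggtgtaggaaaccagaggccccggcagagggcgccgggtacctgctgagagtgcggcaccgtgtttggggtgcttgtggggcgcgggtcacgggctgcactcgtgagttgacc
Drd2: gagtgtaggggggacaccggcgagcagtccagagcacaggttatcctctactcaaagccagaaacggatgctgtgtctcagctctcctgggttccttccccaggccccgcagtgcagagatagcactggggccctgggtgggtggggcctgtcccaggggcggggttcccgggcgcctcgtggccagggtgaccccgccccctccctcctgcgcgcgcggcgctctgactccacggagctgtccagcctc
Tac1: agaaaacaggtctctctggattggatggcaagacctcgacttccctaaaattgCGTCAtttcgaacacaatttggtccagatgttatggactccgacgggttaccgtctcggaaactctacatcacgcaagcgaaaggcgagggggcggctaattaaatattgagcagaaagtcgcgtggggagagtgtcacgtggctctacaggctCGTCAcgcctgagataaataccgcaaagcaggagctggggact
Gpr6: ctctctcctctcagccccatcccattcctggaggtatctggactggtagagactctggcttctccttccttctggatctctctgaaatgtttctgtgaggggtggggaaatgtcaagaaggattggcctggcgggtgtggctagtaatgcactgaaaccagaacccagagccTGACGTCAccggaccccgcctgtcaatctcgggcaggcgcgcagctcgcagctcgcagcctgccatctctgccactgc
The letters searched were the short element TGACG or its reverse complement CGTCA, and the full element TGACGTCA, which holds both and reads the same on either strand. The set of RefSeq promoters used here held 6 of the 9 members, in 8 entries. It had no entry for Adora2a, Penk and Ppp1r1b, so their promoters were not searched. Tac1 held the short element 197 and 43 bases before its start site, and Gpr6 held the full element 78 bases before its own. The other 6 entries, of Drd1, Drd2, Pde10a and Rgs9, held no match in this window. The RefSeq start sites used for Tac1, Drd1 and Pde10a lie inside the gene spans given in the next paragraph. Their windows thus lie partly or wholly within the annotated gene, as does the Tac1 element at 43 bases. Among all 32851 promoters of that length the short element was found in 17.8% and the full element in 1.55%, so a short element in 2 of 6 members is a description of these windows only.

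In gene position on GRCm38, only Adora2a and Gpr6 (chromosome 10) and Ppp1r1b and Rgs9 (chromosome 11) share a chromosome. The D1 receptor gene spans chr13:54051183-54055705, the D2 receptor gene chr9:49340627-49408177, Adora2a chr10:75316877-75334784, Gpr6 chr10:41069977-41072285, Tac1 chr6:7554879-7565834, Penk chr4:4133531-4138819, Ppp1r1b chr11:98348404-98357796, Pde10a chr17:8525372-8986648 and Rgs9 chr11:109225355-109298129. All are annotated as protein coding.

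The clearest feature of these genes was their level in the AppNLGF table against the APP/TAU table. Every library of the AppNLGF table lay above every library of the matching APP/TAU-table group for all 9 members, in wild type, vehicle and 2P-Im mice alike. Of the 16418 genes with a mean of at least 1 TPM in both tables, which leave out Gpr6, 261 (1.59%) did the same. The tables differ in age, cohort, model, dosing time and the authors' normalisation, and in the levels of markers of other brain regions, given below. No test was therefore made across them, and these differences cannot be told apart. In bulk tissue, fewer cells of a type and less RNA per cell cannot be told apart either.

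Wild type ratios of the 4 receptor genes ran from 5.73 to 10.7. The D1 receptor gene Drd1 was at 26.1, 21.2, 28.4 and 25.5 TPM in the 4 wild type libraries of 6 months and at 3.80, 1.77, 3.91, 3.21 and 2.36 TPM in the 5 wild type libraries of 11 months. The wild type mean of Drd1 was thus 8.40 times as high in the AppNLGF table, and the ranges lay far apart. Drd2 was at 20.8, 17.4, 24.5 and 23.6 TPM against 3.69, 2.97, 4.53, 4.27 and 3.34 TPM, a ratio of 5.73. Adora2a, the adenosine receptor of indirect pathway cells, was at 20.8, 17.3, 20.4 and 20.2 TPM against 2.07, 0.522, 3.08, 2.26 and 1.28 TPM, a ratio of 10.7. Its lowest 11-month wild type library, replicate 2, was also the lowest of that group for most other members. Gpr6, the least abundant member, was at 11.0, 8.97, 11.6 and 9.13 TPM against 1.36, 0.396, 1.81, 0.908 and 0.376 TPM. Its ratio was 10.5, and its mean over the APP/TAU table fell short of the minimum of 1 TPM for testing.

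By gene rows, neuropeptide precursors differed less than the receptors. Tac1, which gives substance P, was at 47.5, 46.1, 55.2 and 55.4 TPM in the younger wild type group and at 13.4, 8.38, 17.1, 20.0 and 10.1 TPM in the older, a ratio of 3.71. Penk, which gives enkephalin, was at 122, 117, 135 and 137 TPM against 31.3, 22.1, 37.6, 46.6 and 27.0 TPM, a ratio of 3.89. With its transcript row, described below, Penk averaged 232 TPM in the younger group, so its place below the receptors depends on the rows used. For neither precursor did a library of one table reach the range of the other.

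Among the signalling proteins of both classes, Ppp1r1b had a wild type ratio of 4.54 and Pde10a of 3.77. Pde10a was at 87.8, 69.4, 92.6 and 88.7 TPM against 22.4, 16.9, 23.7, 24.6 and 24.6 TPM. Rgs9 stood apart from them with 66.9, 52.6, 68.5 and 66.9 TPM against 8.65, 4.23, 8.78, 10.3 and 6.74 TPM, a ratio of 8.24. The 9 ratios thus ran from 3.71 to 10.7, while the median ratio over the 16357 genes at a mean of at least 1 TPM in both tables and above 0 in the wild type libraries of 11 months was 0.927, and 72 of those genes (0.440%) were above 3.

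**Figure D1:**
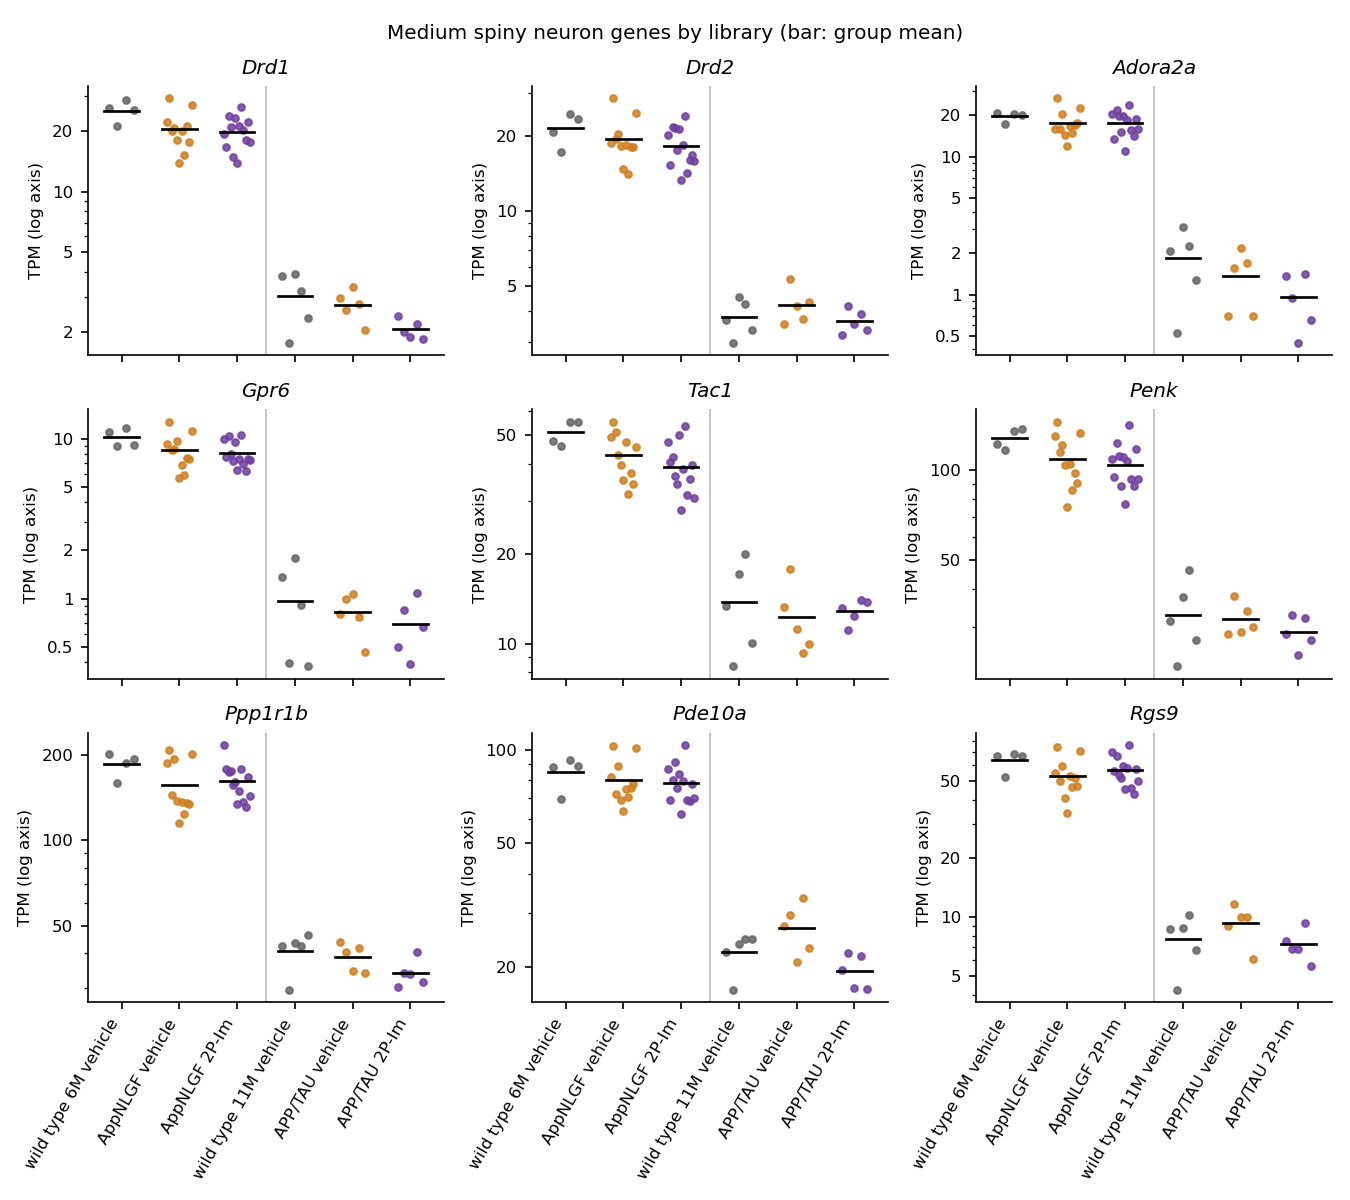
TPM of each member on a log axis, by group, with 1 point per library and a bar at the group mean; the line separates the AppNLGF table (left) from the APP/TAU table (right). For each member every point on the left lies above every point on the right, and the groups within a table overlap.

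Other genes of the same neurons gave a range of ratios, not 1 common factor. Of 26 further genes of both classes, 25 were higher in the wild type libraries of the AppNLGF table and 8 were more than 3 times as high, with a median ratio of 2.21. Of these, the opioid receptor gene Oprm1 had the lowest ratio, 0.919. Of 6 other D1 genes, Slc35d3 and the dynorphin precursor Pdyn had ratios of 3.35 and 3.41, Chrm4 of 2.78, and Ebf1 went the other way at 0.192. Of 3 other D2 genes with a row, the transcription factor gene Sp9 had a ratio of 3.17, Grik3 of 1.37 and Ptprm of 0.792. Markers of other cells and regions differed too, in both directions. Of cerebellar genes, 10 of 10 had ratios below 1, with a summed level of 172 to 186 TPM in the younger and 616 to 901 TPM in the older wild type libraries. Of cortical genes, 7 of 8 had ratios above 1, with 491 to 547 against 263 to 382 TPM. Striatal interneuron genes did not follow the members, with 3 of 7 ratios above 1 and a median of 0.867. Ratios above 1 numbered 0 of 6 for dopamine afferent genes (median 0.350), 1 of 6 for hippocampal (0.520) and 0 of 9 for thalamic and hypothalamic genes (0.729). They numbered 0 of 5 for choroid plexus (0.812) and 3 of 5 for olfactory bulb genes (2.95). Gabra6, a receptor subunit of cerebellar granule cells, had wild type means of 0.0684 and 57.7 TPM. Summed pan-neuronal genes overlapped, at 1860 to 2019 and 1459 to 2132 TPM. The part of tissue composition in the members' gap was not tested.

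Within a table the order of the members' mean TPM did not change between groups. In the AppNLGF table it ran Ppp1r1b, Penk, Pde10a, Rgs9, Tac1, Drd1, Drd2, Adora2a and Gpr6. In the 4 wild type libraries the ranges of Rgs9 and Tac1, of Drd1 and Drd2 and of Drd2 and Adora2a overlapped, so these neighbours did not differ beyond their spread across libraries, although Rgs9 was above Tac1 and Drd1 above Drd2 inside each of the 4 libraries. The other neighbours were apart. Drd1 was above Drd2 in 8 of 11 vehicle and 10 of 13 2P-Im libraries. The APP/TAU table had Tac1 before Rgs9 and Drd2 before Drd1, and the rest of the order was the same. Drd2 was above Drd1 there in 4 of 5 wild type libraries and in all 5 of each model group, and in the wild type group every pair of neighbours overlapped in range.

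The order also depended on which rows stand for a gene. The AppNLGF table lists 64708 rows of single transcripts beside the gene rows, while the APP/TAU table lists none. Adding the transcript rows that GENCODE M21 places in each member changed Penk most, since 45.9% of its summed TPM lay outside its gene row (43.0 to 50.4% over 28 libraries), all in 1 protein coding transcript at a mean of 93.1 TPM. Drd1 had 34.7% outside its gene row, in a processed transcript at a mean of 11.4 TPM, and this share ran from 14.0 to 49.8% between libraries. Pde10a had 29.6% in 8 rows, Adora2a 27.3% in 3 rows and Ppp1r1b 25.1% in 4 rows, the largest a retained intron transcript at a mean of 52.7 TPM. Tac1 and Rgs9 had 3.08% and 2.73%, and Drd2 and Gpr6 had no such row. With the rows summed, wild type Penk was at 232 ± 11.0 TPM (SD, n = 4) and Drd1 at 40.9 ± 7.29 TPM, Ppp1r1b and Penk overlapped in range at the top, and Adora2a came before Drd2. The ratios between the tables above use gene rows in both. It is unknown whether the authors' gene rows of the APP/TAU table already include such transcripts, and the ratios carry that limit.

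**Figure D2:**
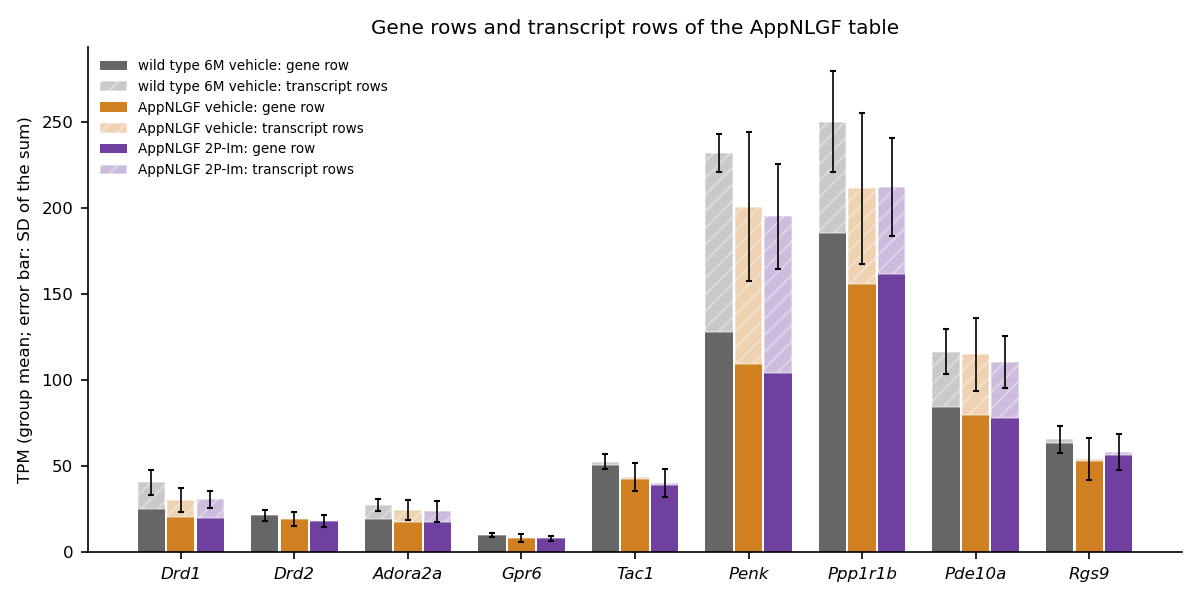
Mean TPM of each member in the 3 groups of the AppNLGF table (4, 11 and 13 libraries), with the gene row as the solid bar, transcript rows of the same gene stacked on it and the SD of the sum as the error bar. Penk carries the largest stacked share, 45.9% on average, and Drd2 and Gpr6 carry none.

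AppNLGF mice were then compared with wild type mice of the same table. All 9 members had lower means in AppNLGF vehicle libraries, by log2 differences from -0.31 (Drd1) to -0.092 (Pde10a) on the log2(TPM + 1) scale, and none passed the test (limma, Benjamini-Hochberg adjusted p below 0.05 over all genes). Over the 3 AppNLGF comparisons 1, 0 and 4 members had an unadjusted p below 0.05, beside 4.16%, 6.18% and 7.73% of all genes, and over the 3 APP/TAU comparisons 0, 1 and 1, beside 23.8%, 26.8% and 2.16%. Each set of 3 is in the order of vehicle with wild type, 2P-Im with vehicle and 2P-Im with wild type. The test called 47 of 16776 genes here (0.28%). The members' median difference was -0.26, beside -0.026 over all genes tested, of which 61.5% were negative. The median over other genes of both classes was -0.16, with 24 of 25 negative. Some marker lists of other cells and regions were lower beside them. Their medians were -0.43 for thalamic and hypothalamic genes (9 of 9 negative), -0.49 for olfactory bulb (3 of 3), -0.38 for choroid plexus (5 of 5) and -0.18 for striatal interneuron genes (7 of 7). Other lists lay nearer 0 or above it. Medians were -0.096 for cerebellar (4 of 7 negative), -0.084 for pan-neuronal (5 of 5) and -0.037 for cortical genes (6 of 8). They were 0.061 for hippocampal (2 of 5) and 0.13 for dopamine afferent genes (1 of 3). No gene of these lists was called, and their part in the members' values was not tested.

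Among the receptors, Drd1 ran from 13.9 through a median of 20.1 to 29.1 TPM in the 11 vehicle libraries, and 7 of them lay below the lowest wild type library while 1 lay above the highest. Its log2 difference was -0.31 (SE 0.15, limma p = 0.0467, adjusted p = 1). Drd2 ran over 14.2, 18.5 and 28.5 TPM as lowest, median and highest, and only 2 vehicle libraries were below all wild type ones. The adenosine receptor gene Adora2a ran over 12.1, 16.7 and 26.6 TPM and Gpr6 over 5.66, 8.51 and 12.8 TPM, with 7 vehicle libraries below all wild type ones in each. Groups overlapped for all 4 receptors. Vehicle libraries above all wild type ones numbered 1 for Drd1, 2 for Drd2, 2 for Adora2a and 1 for Gpr6, and most Drd2 libraries lay inside the wild type range.

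Peptide precursors overlapped the wild type in range too, with 7 vehicle libraries below all wild type ones in each. Tac1 ran from 31.6 through 42.9 to 55.2 TPM and Penk from 75.1 through 105 to 145 TPM in AppNLGF vehicle libraries, and the log2 differences were -0.27 (SE 0.14) and -0.25 (SE 0.14), both with an adjusted p of 1. Of the proteins shared by both classes, Ppp1r1b ran over 115, 138 and 209 TPM, Rgs9 over 34.4, 51.5 and 74.3 TPM and Pde10a over 63.4, 75.2 and 103 TPM. Pde10a had the smallest log2 difference, with a mean of 79.7 ± 12.8 TPM (SD, n = 11) against 84.6 ± 10.3 TPM (n = 4). That difference was -0.18 without wild type replicate 2 and -0.047 without wild type replicate 3, and the one of Drd2 was -0.25 and -0.089.

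In AppNLGF mice given 2P-Im the members lay within the vehicle range in most libraries. Of the log2 differences from vehicle, 7 were negative and 2 positive, from -0.13 (Tac1) to 0.10 (Rgs9), with a median of -0.034 beside -0.038 over all genes; no member was called, and 9 of all genes were (0.0536%). The D1 receptor gene had a median of 20.2 TPM in the 13 2P-Im libraries, from 13.9 to 26.3 TPM, and the difference was -0.034 (SE 0.11, limma adjusted p = 0.940), with a 95% interval from -0.25 to 0.18. The D2 receptor gene had a median of 17.6 TPM, from 13.3 to 24.1 TPM. For Tac1, 10 of 13 treated libraries lay below the vehicle median and 3 below the lowest vehicle library (28.1, 38.4 and 53.7 TPM as lowest, median and highest). For Ppp1r1b and Rgs9, by contrast, only 3 and 4 treated libraries lay below the vehicle median. The sign of this median turned with the scaling: after median-ratio scaling, which sets libraries to a common median of gene ratios, it was 0.0061 with 4 of 9 negative. It also differed between parts of the cohort, at -0.12 among replicate numbers 1 to 5 and 0.063 among 6 and above, with no member called in either.

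Against wild type, AppNLGF mice given 2P-Im had lower means of all 9 members, with a median log2 difference of -0.24 beside -0.064 over all genes, and 44 of 16776 genes were called (0.262%), none of them a member. In the same comparison the medians were -0.74 for thalamic and hypothalamic, -0.61 for choroid plexus, -0.56 for olfactory bulb and -0.28 for striatal interneuron genes. Each was further below 0 than the members' median, with every gene negative. Other lists lay nearer 0 than the members. Medians were -0.16 for cerebellar (5 of 7 negative), -0.13 for pan-neuronal (5 of 5) and -0.12 for cortical genes (6 of 8). They were -0.065 for hippocampal (3 of 5) and 0.020 for dopamine afferent genes (0 of 3). The part of these lists was not tested. Among the members Tac1 showed the largest difference, -0.40 (SE 0.14, limma p = 0.00782, adjusted p = 0.490), with 10 of 13 treated libraries below the lowest wild type value of 46.1 TPM. Drd1 followed at -0.35, then Penk and Gpr6 at -0.31 each; for Penk 10 of 13 libraries lay below all wild type ones. This comparison shares its wild type libraries with the first and its treated libraries with the second. Wild type replicate 2 was the lowest of its group for all 9 members, and Xist, the RNA of the inactive X chromosome, was above 10 TPM in 0 of 4 wild type, 5 of 11 vehicle and 7 of 13 treated libraries. With Xist as a term the members' medians were -0.24 for vehicle and -0.25 for 2P-Im against wild type. A replicate block brought these 2 medians to -0.083 and -0.086, beside -0.13 and -0.18 over all genes under the same block. Whether the numbers pair the libraries was not settled.

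**Figure D3:**
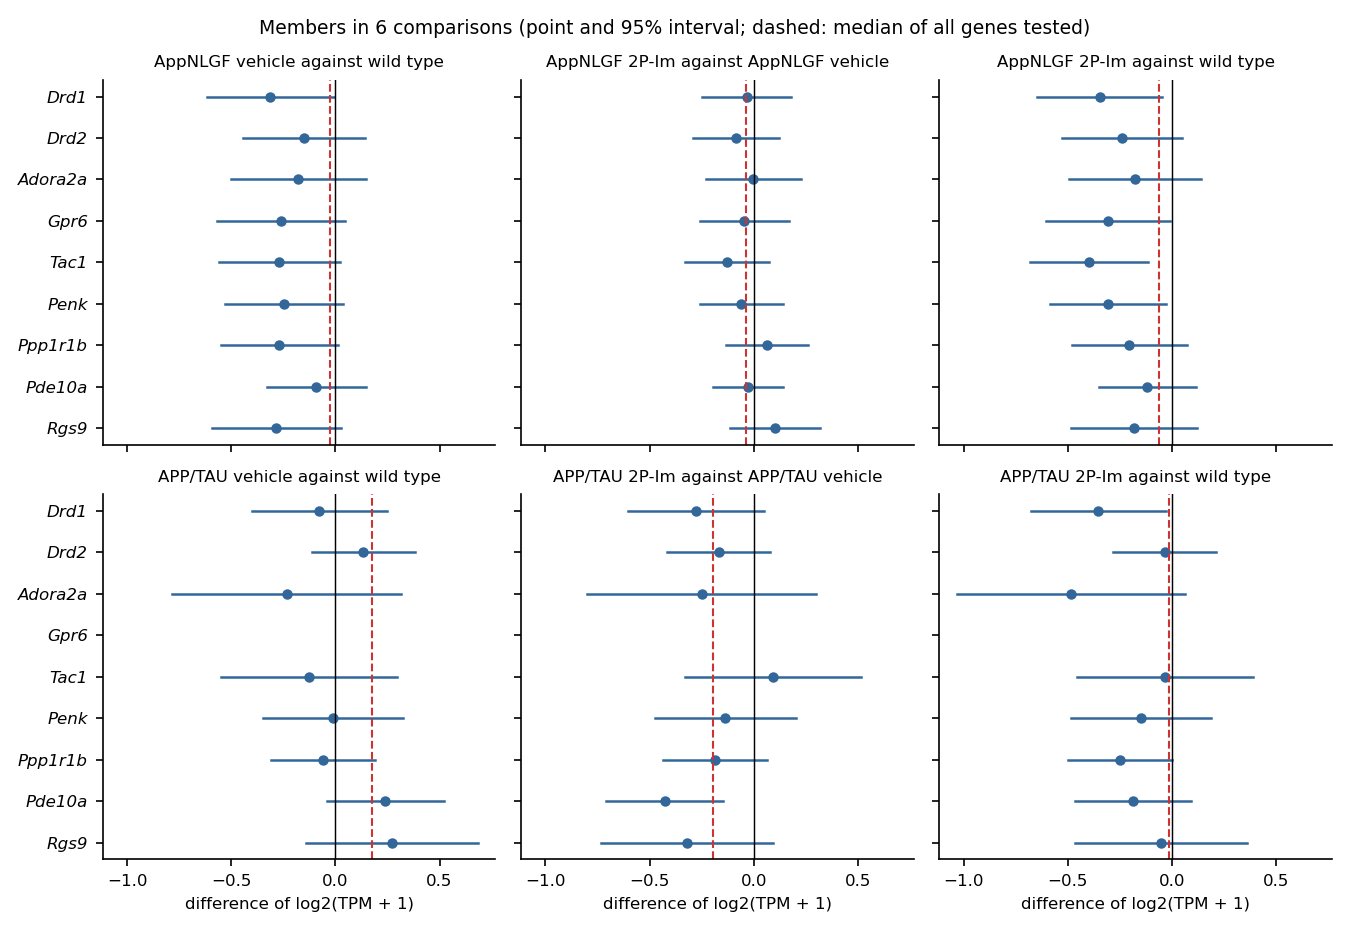
Log2 difference of each member in the 6 comparisons, with its 95% interval (limma); the dashed line is the median of all genes tested and the solid line is 0. Gpr6 was not tested in the APP/TAU table, and the points of the AppNLGF model groups against wild type all lie to the left of 0.

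Of the members, 8 were tested in the APP/TAU cohort, and their differences between vehicle and wild type did not share a direction. Negative values numbered 5 and positive ones 3, from -0.23 (Adora2a) to 0.27 (Rgs9), with a median of -0.036 where the median of all genes was 0.18. No member was called, and 4 of 17592 genes were (0.0227%). Single libraries moved these values: without wild type replicate 2 Adora2a was at -0.44 and Rgs9 at 0.097, without wild type replicate 3 Adora2a was at -0.085, and without vehicle replicate 5 Rgs9 was at 0.40. Drd1 was at 2.97, 2.56, 3.37, 2.76 and 2.04 TPM in APP/TAU vehicle, inside the wild type range. Drd2 was at 3.53, 5.37, 4.17, 3.69 and 4.34 TPM, with 1 library above all wild type ones, and Pde10a at 27.1, 29.4, 20.9, 33.5 and 23.1 TPM, with 3 above. Adora2a was at 0.703, 1.56, 2.16, 1.68 and 0.701 TPM, which overlapped the wild type values widely. A single gene row of unnamed RNA, ENSMUSG00000118866, took 30.1 ± 3.72% (SD, n = 5) of the wild type, 22.0 ± 6.59% of the vehicle and 29.5 ± 1.54% of the 2P-Im libraries, and its part in the members' values was not tested. After median-ratio scaling the members' median against wild type was -0.22 with 6 of 8 negative.

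With 2P-Im, 7 of 8 members had lower means than APP/TAU vehicle, with a median log2 difference of -0.22; the median of all genes was -0.19 and 90.1% of them were negative. No gene of 17592 was called (0%), with 4719 at an unadjusted p below 0.05. Pde10a showed the largest difference, -0.43 (SE 0.13, limma p = 0.00523, adjusted p = 0.167), at 19.6, 22.3, 17.2, 21.7 and 17.0 TPM, of which 3 libraries lay below all vehicle ones. Drd1 was at 2.41, 2.00, 1.90, 2.19 and 1.86 TPM, with 3 below all vehicle ones, and a difference of -0.28 (SE 0.15, limma adjusted p = 0.227). Tac1 alone had a positive difference, 0.093 (SE 0.20), at 13.2, 11.1, 12.3, 14.0 and 13.8 TPM against 13.2, 17.8, 11.2, 9.29 and 9.95 TPM. Its 5 treated libraries were closer together than those of either other group. Penk was at 28.4, 32.7, 24.0, 32.1 and 27.1 TPM against 28.4, 38.0, 28.8, 33.8 and 30.0 TPM, and Rgs9, the G protein regulator, differed by -0.32 (SE 0.19). After median-ratio scaling 4 of 8 were negative and the median was -0.056, with Pde10a at an adjusted p of 0.499.

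Compared with wild type, the APP/TAU 2P-Im libraries had lower means of all 8 members, from -0.48 (Adora2a, SE 0.26) to -0.033 (Tac1), with a median of -0.17 beside -0.012 over all genes and 4 genes called (0.0227%), none of them a member. Adora2a was at 1.36, 0.942, 0.445, 1.42 and 0.652 TPM, where 1 library lay below all wild type ones. Drd1 differed by -0.35 (SE 0.15, limma p = 0.0346, adjusted p = 1), and each of its 5 treated libraries lay below the wild type median but none below the lowest wild type library. That library, wild type replicate 2, was the lowest of its group for 8 of 9 members. Gpr6, not tested, was at 0.498, 0.852, 0.390, 1.08 and 0.667 TPM, inside the wild type range.

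The effects in the APP/TAU cohort were also compared with those in the AppNLGF cohort in 1 fit of all 6 groups, each effect taken within its own table. For vehicle against wild type 29 of 16418 genes were called (0.177%) and for 2P-Im against vehicle 22 (0.134%), with no member among them. The member with the smallest p for treatment was Pde10a, with -0.40 for APP/TAU minus AppNLGF (SE 0.15, limma p = 0.0134, adjusted p = 0.199), and for genotype Rgs9, with 0.55 (SE 0.25, limma p = 0.0293, adjusted p = 0.220). The medians of all genes for these contrasts were -0.15 and 0.21.

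Genes of the direct pathway cells were set against those of the indirect pathway cells within each library, which lessens the effect of a shared scaling. The mean log2(TPM + 1) of Drd1 and Tac1 minus that of Drd2, Adora2a, Penk and Gpr6 was 0.37 ± 0.033 in wild type (SD, n = 4), 0.29 ± 0.11 in AppNLGF vehicle (n = 11) and 0.26 ± 0.095 in AppNLGF 2P-Im libraries (n = 13). The wild type values ran from 0.32 to 0.40, inside the vehicle range of 0.16 to 0.47, and the 2P-Im range was 0.12 to 0.38. The balance in the APP/TAU table was 0.49 ± 0.065 in wild type, 0.43 ± 0.19 in vehicle and 0.51 ± 0.18 in 2P-Im libraries (n = 5 each), again with overlapping ranges. These levels depend on the pseudocount, since Adora2a and Gpr6 lie near 1 TPM there, and with a pseudocount of 0.1 they were 0.758, 0.705 and 0.822. These are descriptions over chosen members and carry no test. Within the peptide pair, Tac1 minus Penk was -1.31 in wild type, -1.33 in AppNLGF vehicle and -1.40 in 2P-Im, and -1.22, -1.33 and -1.10 in the APP/TAU table, so enkephalin precursor RNA was the higher of the pair in each group mean. Within the dopamine receptor pair, Drd1 minus Drd2 was 0.22 ± 0.091, 0.065 ± 0.10 and 0.12 ± 0.18 (SD) in the AppNLGF table. In the APP/TAU table it was -0.27 ± 0.21, -0.48 ± 0.32 and -0.59 ± 0.18, with overlapping ranges. With a pseudocount of 0.1 the APP/TAU values were -0.35, -0.61 and -0.78. With transcript rows added, Drd1 minus Drd2 was 0.89, 0.62 and 0.74 in the AppNLGF table, because Drd1 has such a row and Drd2 has none.

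**Figure D4:**
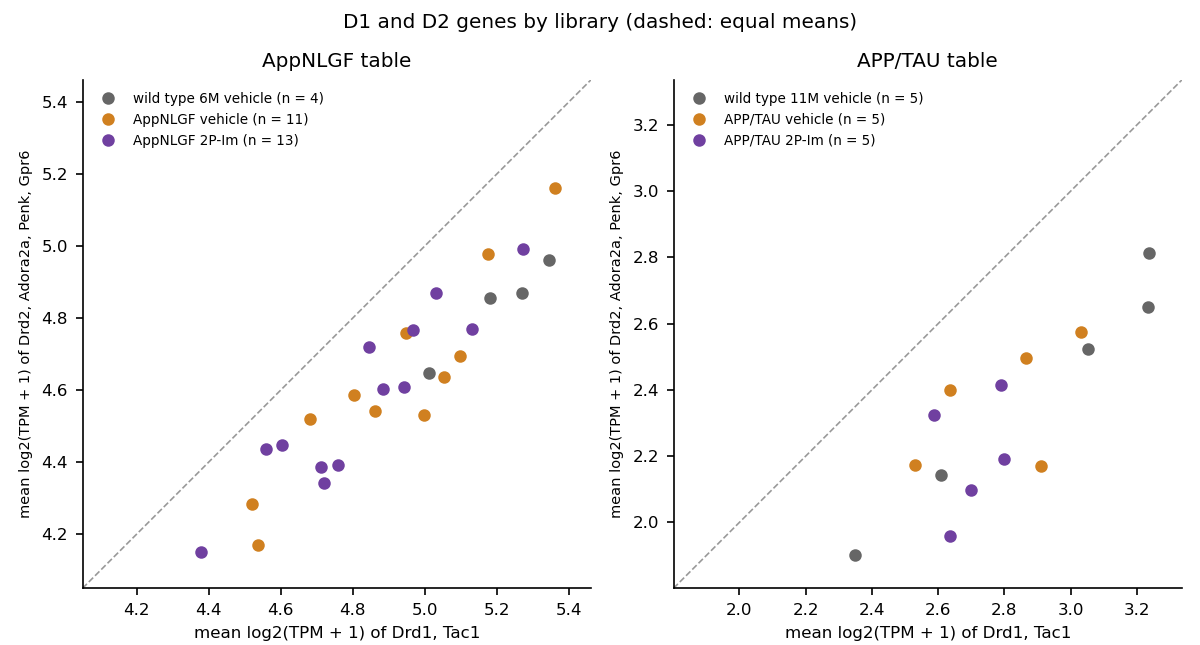
Mean log2(TPM + 1) of Drd1 and Tac1 (horizontal) against that of Drd2, Adora2a, Penk and Gpr6 (vertical), with 1 point per library coloured by group and a dashed line where both are equal. In both tables libraries high in one set are high in the other, and the groups overlap along the same band below the line.

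D1 and D2 genes varied together from library to library. After removing group means, the 2 averages had a Pearson r of 0.924 over the 28 AppNLGF-table libraries (Spearman 0.902, and r 0.897 without the 2 farthest libraries) and 0.830 over the 15 APP/TAU-table libraries (Spearman 0.736, and 0.677). The libraries of a table share a scaling, which moves all genes of a library together; with median-ratio scaling the values were 0.944 and 0.761. Over the 36 pairs of members r ran from 0.675 (Tac1 with Adora2a) to 0.919 (Drd1 with Penk) in the AppNLGF table, with a median of 0.827. Pairs in the APP/TAU table ran from 0.323 (Drd2 with Ppp1r1b) to 0.832 (Drd1 with Adora2a), with a median of 0.605, and from -0.32 to 0.837 once median-ratio scaled. The same libraries often lay at the ends of a group's range: AppNLGF vehicle replicate 2 was the highest of its group for 9 of 9 members and replicate 6 the lowest for 7, and among 2P-Im libraries replicate 9 was the highest for 8 and replicate 7 the lowest for 6.

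Genes whose library pattern was most like the mean of the 9 members were then ranked among 16291 others of the AppNLGF table. Among the first 8 were Adcy5 (r 0.944 over 28 libraries), the adenylyl cyclase that dopamine and adenosine receptors act on in the striatum, Pde1b (0.933), the G protein subunit gene Gng7 (0.894), Rasd2 (0.893), the sodium channel subunit gene Scn4b (0.891), the synaptic vesicle gene Sv2c (0.889) and the retinoic acid receptor gene Rarb (0.886). For the APP/TAU table they were Syt5 (0.968 over 15 libraries), Ppp1r1a (0.955), Gabra3 (0.951), Adcy5 (0.946), Cyld (0.938), Wdr47 (0.933), Stmn1 (0.925) and Ngef (0.921), so Adcy5 appeared in both. The rankings describe these libraries and give no p. They use TPM as deposited, where libraries share a scaling. In the APP/TAU table the members' mean then also had an r of 0.769 with pan-neuronal genes and -0.51 with the most abundant RNA. A high rank there therefore need not mark a gene of these neurons.

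Marker lists of other cells and regions were set beside the members in the same way. In the AppNLGF table the r with the members' mean was 0.890 for shared medium spiny neuron genes, 0.753 for other D1 genes, 0.297 for other D2 genes, 0.689 for striatal interneuron genes, -0.16 for cortical and -0.60 for hippocampal genes, and with median-ratio scaling 0.980, 0.851, 0.602, 0.798, -0.41 and -0.79. Libraries of that table with higher medium spiny neuron genes thus had lower hippocampal genes. Pan-neuronal genes in that table had 0.047 as deposited and 0.544 once scaled, and the most abundant RNA 0.043 and 0.507. Values in the APP/TAU table were 0.946 for shared medium spiny neuron genes, 0.839 for cortical, 0.797 for thalamic and hypothalamic, 0.794 for choroid plexus, 0.769 for pan-neuronal, 0.519 for hippocampal and 0.219 for cerebellar genes, and -0.51 for the most abundant RNA. With median-ratio scaling these became 0.915, 0.649, 0.744, 0.619, 0.532, -0.22, -0.71 and -0.050, so the hippocampal relation was positive there as deposited and negative once scaled. Striatal interneuron genes in the APP/TAU table had 0.227 as deposited and -0.35 once scaled, unlike in the AppNLGF table. The part of dissection in these relations was not tested.

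**Figure D5:**
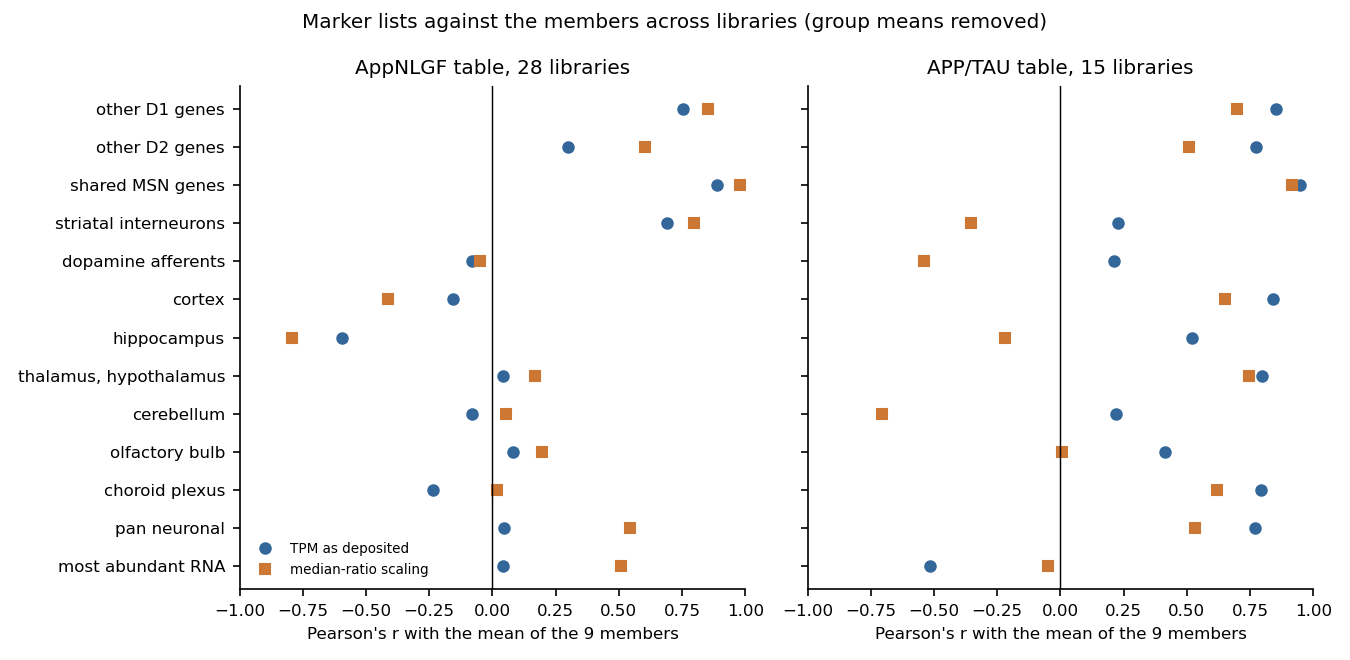
Pearson's r, over the libraries of each table with group means removed, between the mean of the 9 members and the mean of each marker list or the most abundant RNA, for TPM as deposited (circles) and after median-ratio scaling (squares). Shared medium spiny neuron genes lie at 0.890 or above in both tables and scalings, while several lists, the cerebellar list of the APP/TAU table among them, change sign with the scaling.

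The other listed genes of these neurons were tested in the same fits, 6 other D1, 3 other D2 and 25 shared genes in the AppNLGF table and 5, 2 and 25 in the APP/TAU table. Limma called 0 of them in either direction in any of the 6 comparisons. At an unadjusted p below 0.05 it had 3, 2 and 10 of the shared genes, 1, 1 and 1 of the other D1 genes and 1, 1 and 2 of the other D2 genes in the AppNLGF comparisons of vehicle with wild type, 2P-Im with vehicle and 2P-Im with wild type. The counts for APP/TAU in the same order were 2, 11 and 1, then 1, 1 and 0, then 2, 1 and 0. All genes had 4.16%, 6.18% and 7.73% below that p in the AppNLGF comparisons and 23.8%, 26.8% and 2.16% in those of APP/TAU.

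The nearest to a call was Chrm4, the muscarinic M4 receptor gene of direct pathway cells, with 20.5 TPM on average in AppNLGF vehicle and 27.9 TPM in wild type, a log2 difference of -0.44 (SE 0.11, limma p = 3.7e-04, adjusted p = 0.0950). Its AppNLGF vehicle range lay wholly below the wild type one, as did that of 44 of 16776 genes (0.262%) and of no member; Chrm4 is described here because its p was the smallest of the listed genes. With 2P-Im its mean was 25.2 TPM, a log2 difference of 0.28 from vehicle (SE 0.076, limma adjusted p = 0.313) and of -0.15 from wild type. Chrm4 in APP/TAU mice differed by 0.29 for vehicle against wild type (limma adjusted p = 0.250), by -0.44 for 2P-Im against vehicle (adjusted p = 0.167) and by -0.15 for 2P-Im against wild type.

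The remaining genes are those with the smallest p of each list, given by their log2 differences, none of which passed the test. For AppNLGF vehicle against wild type they were Isl1 (-0.33) and Pdyn (-0.18) of the D1 list, Sp9 (-0.32), Grik3 (-0.072) and Ptprm (-0.052) of the D2 list, and Gad1 (-0.26), which makes the transmitter GABA, Pde1b (-0.23) and Meis2 (-0.28) of the shared list. For AppNLGF 2P-Im against vehicle they were Isl1 (-0.19), Eya1 (-0.073), Grik3 (-0.12), Ptprm (-0.029), Sp9 (0.0034), the striatal phosphatase gene Ptpn5 (-0.15), the transcription factor gene Bcl11b (-0.11) and the G protein subunit gene Gnb5 (-0.11). For AppNLGF 2P-Im against wild type they were Isl1 (-0.52), Slc35d3 (-0.24), Grik3 (-0.19), Sp9 (-0.31), Ptprm (-0.081), Gad2 (-0.37), Gad1 (-0.33) and Strip2 (-0.39). All but 1 of these values in the AppNLGF table were negative, as were most genes tested there.

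In the first 2 APP/TAU comparisons the values had the sign of the median of all genes, except for Pdyn. For vehicle against wild type the genes were Ebf1 (0.25), Pdyn (-0.19), Grik3 (0.32), Ptprm (0.25), Gad1 (0.23), Arpp21 (0.24) and Rgs7bp (0.19), which anchors Rgs9 family proteins, where the median of all genes was 0.18. For 2P-Im against vehicle they were Eya1 (-0.21), Slc35d3 (-0.17), Grik3 (-0.33), Ptprm (-0.23), Ano3 (-0.28), Rgs7bp (-0.28) and Bcl11b (-0.36), where it was -0.19. For 2P-Im against wild type, with a median of -0.012, they included Pdyn (-0.31), Ebf1 (0.16), Ptprm (0.017), Grik3 (-0.0077), Rasd2 (-0.16) and Gnb5 (-0.11).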

How the data were processed

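Total RNA of mouse brain was sequenced in 43 libraries (Sepasol extraction, MGIEasy RNA Directional Library Prep Set, per the labels' protocols). The authors deposited TPM, 1 table per cohort. The submitters' processing notes name Salmon and GRCm38 (mm10), with version and annotation release not given in the sources used here. TPM keep no depth, so no counting interval can be given. Gene rows hold 88.5 to 91.4% (AppNLGF) and 84.9 to 90.8% (APP/TAU) of each library's total.

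Groups came from the titles. Genes with a mean of at least 1 TPM over their table were tested as log2(TPM + 1), a scale that understates changes of low genes, with limma 3.58.1 in R 4.3.3 (1 mean per group, all 3 groups of a table in 1 fit, moderated with a trend, two-sided, Benjamini-Hochberg over all genes, called below 0.05). Errors of TPM are SD and errors of differences SE. Descriptions used Python 3.11.15, pandas 2.3.3 and numpy 2.4.6. The fit was tested on simulated data with 200 changed genes. Positions are from GENCODE M21.

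The members and lists were chosen with earlier results of these data known. Named were the 9 members, up to 3 genes with the smallest p of each of 3 further neuron lists per comparison, and the 8 genes most like the members per table; a gene the rule selected is not reported here. Alternatives were median-ratio scaling, a pseudocount of 0.1, no minimum or a minimum of 5 TPM, robust moderation, a replicate block, only the groups compared, terms for Xist and for replicate numbers, and each library left out; adding transcript rows, and likeness under median-ratio scaling, were chosen after seeing the data. Whether same-numbered libraries pair was not settled. Only 2 of 11 pairs of AppNLGF 2P-Im and vehicle, and none in the other comparisons, had a correlation of deviations over 0.1. Yet the best correlation was with the own number for 3 of 4 libraries of AppNLGF 2P-Im against wild type and 3 of 5 of APP/TAU 2P-Im against wild type. It was so for 0 of 4 and 2 of 11 in the other AppNLGF comparisons and 1 of 5 in each other APP/TAU comparison.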

Additional observations from a re-analysis of the deposited data

Results flagged for a closer look

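Groups of 4 to 10 libraries were screened for a library far from the others, 40 series in all (9 members and the D1 minus D2 balance in each of 4 groups), and chance marks about 1 in 20 such series. In wild type mice of 6 months, Rgs9 was at 52.6 TPM in replicate 2, apart from the other 3 libraries, of which the nearest was at 66.9 TPM. In wild type mice of 11 months, Ppp1r1b was at 29.7 TPM in replicate 2, apart from the other 4 libraries, of which the nearest was at 42.3 TPM. Each is the library that was lowest for most members of its group. Without it, no member was called in any comparison.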

How the results depend on the processing

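No member was called under any alternative, in 1200 recomputed values of 51 member differences; the smallest limma adjusted p was 0.0678 (Pde10a, APP/TAU 2P-Im against vehicle, without vehicle replicate 5), beside 0.167 in the main analysis. The sign turned in 47 values of 16 differences, and the cause was not tested. The turned values themselves were at most 0.12 in size on the log2 scale. Some moves from the main value were larger, as for Ppp1r1b in AppNLGF 2P-Im against wild type, from -0.20 to 0.028 with a replicate block. For AppNLGF 2P-Im against vehicle, median-ratio scaling gave 0.0061 for Drd1, 0.040 for Adora2a and 0.016 for Pde10a; replicate numbers 6 and above alone gave 0.091 for Drd1, 0.033 for Adora2a, 0.081 for Penk and 0.063 for Gpr6; Adora2a was 0.0031 with an Xist term and 0.0060 with a term for replicate numbers; and Drd1 with transcript rows was 0.034, or 0.056 after scaling. For APP/TAU, median-ratio scaling gave Drd2 -0.031 for vehicle against wild type, and 0.0082 for Drd2, 0.081 for Penk and 0.031 for Ppp1r1b for 2P-Im against vehicle. With a replicate block, Ppp1r1b was 0.028 in AppNLGF 2P-Im against wild type; that block called 3222 genes there against 44 without it, none of them a member, and Tac1 had an adjusted p of 0.297. In the APP/TAU table the block changed no member's call. Over all genes, median-ratio scaling called 116, 48 and 120 genes in the AppNLGF comparisons of vehicle with wild type, 2P-Im with vehicle and 2P-Im with wild type, against 47, 9 and 44 as deposited, and no member in either.

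Leaving out 1 library gave, for AppNLGF 2P-Im against vehicle, -0.084 to 0.017 for Drd1, -0.049 to 0.059 for Adora2a, -0.094 to 0.011 for Gpr6 and -0.061 to 0.011 for Pde10a. For APP/TAU vehicle against wild type it gave -0.20 to 0.0048 for Drd1, -0.27 to 0.016 for Tac1 and -0.14 to 0.12 for Penk, and for APP/TAU 2P-Im against wild type -0.18 to 0.11 for Tac1, -0.098 to 0.022 for Drd2 and -0.22 to 0.053 for Rgs9. TPM carry no depth, so how far depth limits the low values of Adora2a and Gpr6 in the APP/TAU table is unknown.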
